A study of Mus musculus with 96 samples.

Results

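Oligodendrocytes wrap axons with myelin, and 31 genes of these cells and their lineage were followed here through 3 brain regions, 2 mouse strains and an acute drug exposure. The 31 genes were a list chosen with earlier results of these data known. Each was represented by the transcript cluster (the probes that an array assigns to a gene) whose annotation named that gene alone. They comprised 23 genes of mature, myelin-forming cells, 6 lineage transcription factors and 2 surface genes of progenitors. On the 1.1ST arrays 28 of the 31 had such a cluster among 28310 clusters tested, and on the 1.0ST arrays 30 of the 31 did. Mbp (myelin basic protein, the main protein that compacts the sheath) and Nkx6-2 (a homeodomain factor) shared their 1.1ST cluster with another gene and were therefore taken from the 1.0ST arrays. Evi2a shared its cluster with neighbouring genes on both formats and has no value here.

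Brains came from 16 adult male mice aged 14 weeks: 4 NOD/ShiLtJ mice given clozapine (4 mg/kg), 4 NOD/ShiLtJ mice given vehicle, 4 C57BL/6J mice given clozapine and 4 C57BL/6J mice given vehicle. Every mouse was killed 3 h after its injection and gave 3 samples: the hindbrain and the forebrain of one hemisphere and the other hemisphere left whole, which is called whole brain. The cerebellum had been removed from all samples. Each of the 48 RNA samples was hybridised to a 1.1ST and to a 1.0ST array, so the formats are repeat measurements of the same RNA. Values are log2 expression, so that a difference of 1 is a 2-fold difference, and results are for the 1.1ST arrays unless the other format is named.

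Myelin is a stack of glial membrane rich in galactolipid and held together by a small set of abundant proteins. Oligodendrocyte progenitors carry the receptor Pdgfra and the proteoglycan Cspg4 (NG2), and as they mature they lose both and turn on the sheath proteins under factors such as Olig2, Sox10 and Nkx2-2. White matter tracts are prominent in the brainstem. The arrays measured pieces of tissue, in which fewer cells of a type and less RNA per cell cannot be told apart.

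Regional neuronal genes differed between the dissected pieces. Slc17a6, the vesicular glutamate transporter of brainstem and thalamus, was 2.43 higher on the log2 scale in hindbrain than in forebrain. Slc17a7, the transporter of cortex and hippocampus, had a difference of -2.07. Slc17a6 does not separate brainstem from thalamus, and the paper counts substantia nigra and hypothalamus as parts of the hindbrain. One sample stood apart. The whole brain of the vehicle-treated NOD/ShiLtJ mouse DD656 had the highest level of the 16 whole brains for 18 of the 21 measured mature genes, and for 17 of the 21 it lay above the lowest hindbrain. No other whole brain lay above the lowest hindbrain for more than 3 of the 21. Some results that use whole brain are given with and without this array, and the others include it.

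The myelin genes were higher in hindbrain than in forebrain with few exceptions. In the joint fit, 27 of the 28 measured genes were higher in hindbrain at a false discovery rate (FDR) below 0.05 by limma, and none was lower. Such calls were frequent over the whole array, where 65.7% of clusters differed between these regions and 33.1% were higher in hindbrain. The list was chosen with earlier results of these data known, so these shares are a background and no test of the list. The median difference of the 28 genes was 0.77, against -0.01 over all clusters. All 12 sheath proteins, both gap junction proteins, all 7 enzymes and carriers and all 5 lineage factors rose, and of the progenitor genes only Pdgfra passed the test.

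**Figure D1:**
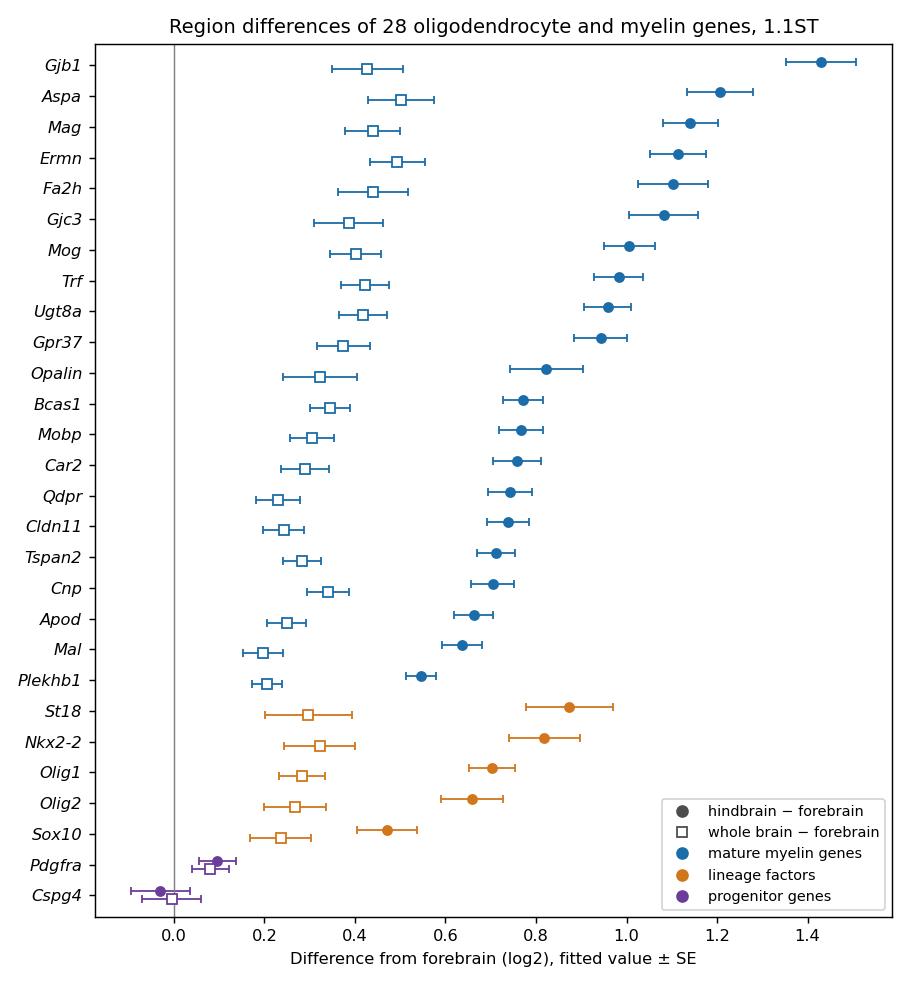
Fitted log2 difference from forebrain (x axis) of the 28 genes measured on the 1.1ST arrays (y axis, by role), for hindbrain (filled circles) and whole brain (open squares), with bars of 1 SE over 16 mice. The mature genes lie between 0.55 and 1.43 in hindbrain and between 0.20 and 0.50 in whole brain, and the 2 progenitor genes lie near 0 in both.

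The largest difference on the 1.1ST arrays belonged to Gjb1, which encodes connexin 32, a gap junction protein of oligodendrocytes. Its log2 level ran from 6.64 through a median of 7.12 to 7.55 in the 16 hindbrains, and from 5.13 through 5.66 to 6.20 in the 16 forebrains. The lowest hindbrain thus lay above the highest forebrain, and the fitted difference was 1.43 ± 0.08 (SE; FDR 1.1e-21, limma), or 2.69-fold. On the 1.0ST arrays it was 0.94 ± 0.05, below those of Ermn (1.08), Aspa (1.06), Mag (1.05), Gjc3 (1.03), Trf (0.99), Ugt8a (0.98) and Fa2h (0.96). Gjc3, which encodes the oligodendrocyte connexin 29, ran from 10.79 through 11.02 to 11.27 in hindbrain and from 9.41 through 10.02 to 10.40 in forebrain, a difference of 1.08 ± 0.08. The 2 connexins were together the gap junction group. They were also 2 of the 3 genes, with Apod, whose hindbrain values all lay above the whole brain values, against 0.434% of all clusters. This count includes the whole brain of DD656, which lay above the lowest hindbrain for 17 of the 21 mature genes. The count without that array is not given. On the 1.0ST arrays 7 of 30 genes separated in this way, against 1.08% of all clusters.

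Aspa, the enzyme that breaks down N-acetylaspartate and releases acetate for lipid synthesis, ran from 8.80 through 9.32 to 9.57 in hindbrain and from 7.68 through 8.00 to 8.47 in forebrain. Its difference was 1.21 ± 0.07 (FDR 4.6e-20, limma). Fa2h, which makes the 2-hydroxy fatty acids of myelin galactolipids, ran from 9.55 through 9.98 to 10.34 in hindbrain and from 8.36 through 8.87 to 9.09 in forebrain, a 2.15-fold difference (FDR 1.1e-17, limma). Both enzymes separated the regions fully. The other 5 of the group were Trf (transferrin, the iron carrier; 0.98), Ugt8a (the transferase that makes galactosylceramide; 0.96), Car2 (carbonic anhydrase; 0.76), Qdpr (dihydropteridine reductase; 0.74) and Apod (apolipoprotein D; 0.66).

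Among the sheath proteins, Mag, the adhesion molecule of the membrane that faces the axon, ran from 10.72 through 11.00 to 11.21 in hindbrain and from 9.60 through 9.82 to 10.21 in forebrain, a difference of 1.14 ± 0.06 (FDR 5.1e-22, limma). Ermn, which encodes the cytoskeletal protein ermin, ran from 10.50 through 10.71 to 11.00 in hindbrain and from 9.31 through 9.54 to 9.97 in forebrain, a difference of 1.11 ± 0.06. The other 10 sheath genes lay between 0.55 and 1.01. They were Mog, on the outermost surface of the sheath, Gpr37, Opalin, Bcas1, Mobp, Cldn11 (the claudin of the tight junctions between its layers), Tspan2, Cnp, Mal and, at the low end, Plekhb1. Mbp, measured on the 1.0ST arrays, ran from 12.49 through 12.62 to 12.74 in hindbrain and from 12.10 through 12.29 to 12.41 in forebrain. Its difference of 0.34 ± 0.03 (FDR 3.8e-16, limma) was small beside the others, but the regions did not overlap.

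The lineage factors followed the mature genes. St18 (0.87 ± 0.10), a zinc finger factor, and Nkx2-2 (0.82 ± 0.08), a homeodomain factor, differed most, before Olig1 (0.70 ± 0.05) and Olig2 (0.66 ± 0.07), the paired basic helix-loop-helix factors. Sox10, the SOX factor that drives myelin genes, was at the low end with 0.47 ± 0.07. Nkx6-2, on the 1.0ST arrays, was 0.58 ± 0.04 higher in hindbrain (FDR 1.7e-16, limma), with a range of 9.14 to 9.68 in hindbrain and 8.68 to 9.04 in forebrain.

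The 2 progenitor genes did not share this pattern. Cspg4 ran from 6.27 through 6.87 to 7.28 in hindbrain and from 6.42 through 6.93 to 7.10 in forebrain, and its difference of -0.03 ± 0.06 did not pass the test (FDR 0.21, limma). It did pass by FDR within each strain, in opposite directions (-0.21, FDR 0.036, limma, in NOD/ShiLtJ and 0.15, FDR 0.047, limma, in C57BL/6J). The unadjusted p-values were 0.041 in NOD/ShiLtJ and 0.062 in C57BL/6J (limma), each above its FDR. Cspg4 also passed with centred arrays (-0.10, FDR 0.028, limma). Pdgfra ran from 9.14 through 9.39 to 9.55 in hindbrain and from 8.99 through 9.34 to 9.55 in forebrain. Its difference of 0.10 ± 0.04 passed in this fit (FDR 0.012, limma) but was lost with surrogate variables and with centred arrays. Within strains the Pdgfra difference was -0.02 (FDR 0.33, limma) in NOD/ShiLtJ and 0.21 (FDR 0.0052, limma) in C57BL/6J. Cspg4 was higher in hindbrain in 7 of 16 mice and Pdgfra in 11 of 16.

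**Figure D2:**
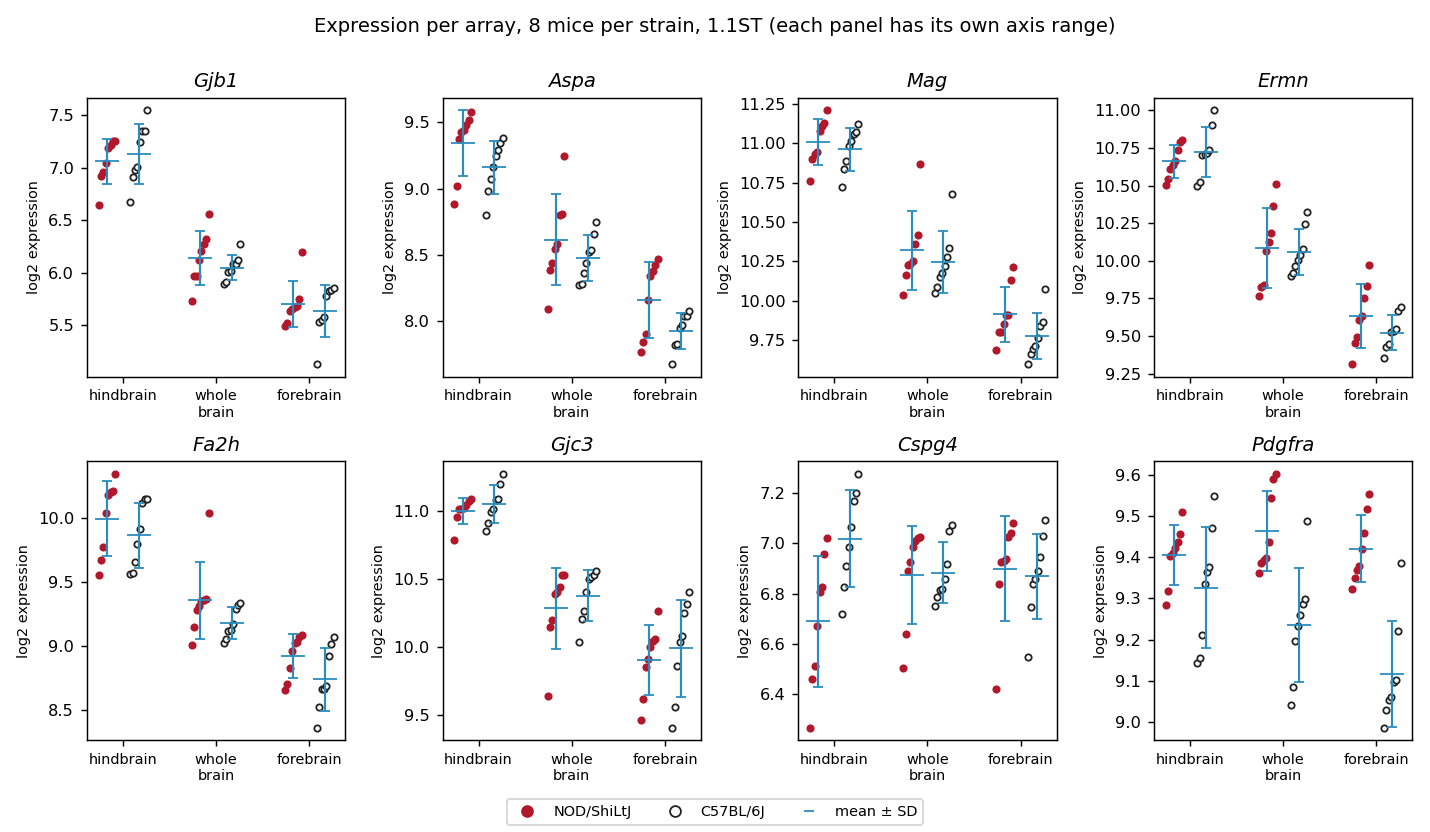
Log2 expression per 1.1ST array (y axis, each panel on its own range) of the 6 genes with the largest hindbrain difference and of the 2 progenitor genes, by region (x axis) and strain (filled, NOD/ShiLtJ; open, C57BL/6J; 8 mice each), with the mean ± SD in blue. In the first 6 panels every hindbrain lies above every forebrain, whereas Cspg4 and Pdgfra overlap in all regions.

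The same pattern was read within mice. Hindbrain exceeded the forebrain of the same mouse in 16 of 16 mice for 24 of the 28 genes, a condition that 12.2% of all clusters met, and in 15 of 16 for Sox10 and St18. For 21 of the 28 the hindbrain and forebrain arrays did not overlap at all, against 4.80% of all clusters with hindbrain above forebrain. The median difference over the 21 mature genes lay between 0.45 (DD678, a NOD/ShiLtJ mouse) and 1.25 (BB707, a C57BL/6J mouse) within single mice.

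Promoter sequences were read for some of these genes as context. RefSeq windows from 250 bases before to 50 after the start were at hand for 22 of the 31 genes, in 29 windows. They were searched on both strands for ACAAAG and ACAATG, short cores that SOX proteins bind, and for CAGATG and CAGCTG, E-boxes of the kind that basic helix-loop-helix proteins bind. ACAAAG was found in 34.5% of the 29 windows and in 18.7% of all 32851 windows, ACAATG in 13.8% and 12.6%, CAGATG in 34.5% and 17.2%, and CAGCTG in 10.3% and 16.3%. The genes with ACAAAG were Apod, Cnp, Gjb1, Mag, Mobp, Opalin, Plekhb1 and Tspan2, and those with CAGATG were Apod, Aspa, Gjc3, Gpr37, Nkx2-2, Opalin, Plekhb1, Qdpr, Tspan2 and the progenitor gene Pdgfra. A match is a description of the letters and not a site. The windows below are those of Cnp (chr11:100574689-100574988, plus strand), whose enzyme sits in the cytoplasmic folds of myelin, of Mobp (chr9:120149492-120149791, plus strand), a basic protein of compact myelin with 6 copies of the first core, of Opalin (chr19:41077064-41077363, minus strand), a paranodal membrane protein, and of Cspg4 (chr9:56864854-56865153, plus strand), a progenitor gene whose window held none of the 4 motifs. Coordinates are of GRCm38.p6, the sequences run 5′ to 3′ on the gene's strand, and capitals mark any of the 4 motifs or its reverse complement. The motifs did not overlap one another in these windows.
Cnp: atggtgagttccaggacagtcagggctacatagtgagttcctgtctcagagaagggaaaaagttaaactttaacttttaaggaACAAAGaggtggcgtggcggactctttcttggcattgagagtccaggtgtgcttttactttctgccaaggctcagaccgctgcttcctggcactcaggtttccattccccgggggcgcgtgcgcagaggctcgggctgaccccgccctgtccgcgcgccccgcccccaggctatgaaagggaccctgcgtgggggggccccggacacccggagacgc
Mobp: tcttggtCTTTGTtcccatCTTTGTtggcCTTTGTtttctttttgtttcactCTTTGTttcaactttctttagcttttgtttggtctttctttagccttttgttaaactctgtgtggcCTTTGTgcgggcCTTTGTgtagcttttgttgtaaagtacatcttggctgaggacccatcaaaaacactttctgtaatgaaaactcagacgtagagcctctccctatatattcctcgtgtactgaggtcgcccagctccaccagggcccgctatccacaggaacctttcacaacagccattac
Opalin: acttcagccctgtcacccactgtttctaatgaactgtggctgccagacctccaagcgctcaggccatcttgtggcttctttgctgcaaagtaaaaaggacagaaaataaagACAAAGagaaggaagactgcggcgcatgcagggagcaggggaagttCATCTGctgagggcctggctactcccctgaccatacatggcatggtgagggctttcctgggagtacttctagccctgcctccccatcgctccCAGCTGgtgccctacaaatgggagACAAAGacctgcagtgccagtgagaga
Cspg4: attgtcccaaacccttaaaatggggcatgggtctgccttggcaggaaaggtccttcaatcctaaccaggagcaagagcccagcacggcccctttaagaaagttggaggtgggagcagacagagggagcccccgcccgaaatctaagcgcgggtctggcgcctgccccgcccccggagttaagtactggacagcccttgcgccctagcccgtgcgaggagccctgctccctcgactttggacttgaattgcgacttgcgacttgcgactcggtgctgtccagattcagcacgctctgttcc

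Whole brain, which contains both other regions, took a place between them. Of the 28 genes 26 were higher in whole brain than in forebrain (limma, FDR below 0.05), where 20.0% of all clusters differed, 12.3% being higher and 7.65% lower, and the same 26 were higher in hindbrain than in whole brain, where 47.4% of all clusters differed and 26.8% were higher. The 2 that passed neither test were Cspg4 and Pdgfra. Across the 26 mature and lineage genes, the whole brain difference was 29.9% to 50.1% of the hindbrain difference on the log2 scale, with a median of 39.8%. These 3 comparisons share samples and are not independent of each other.

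Aspa ran from 8.09 through 8.53 to 9.25 in whole brain, against 7.68 through 8.00 to 8.47 in forebrain, a difference of 0.50 ± 0.07 (FDR 7.6e-07, limma). Ermn ran from 9.77 through 10.05 to 10.51 in whole brain, against 9.31 through 9.54 to 9.97 in forebrain, a difference of 0.49 ± 0.06. Fa2h ran from 9.01 through 9.28 to 10.04 in whole brain, against 8.36 through 8.87 to 9.09 in forebrain, a difference of 0.44 ± 0.08. The groups overlapped for all 28 genes, and the highest whole brain of each of these 3 was that of DD656. Without that array the differences were 0.46, 0.46 and 0.39, and 26 genes were still called in each of the 2 comparisons. The shares of all clusters called without it are not given. St18 lost its call without mouse BB707 (0.24, FDR 0.059, limma), with surrogate variables (0.12, FDR 0.21, limma) and in each strain alone. With 8 mice of 1 strain, Olig2 and Sox10 lost theirs in both strains, Nkx2-2 in C57BL/6J and Mal, Opalin, Car2 and Qdpr in NOD/ShiLtJ.

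Relative to forebrain, whole brain varied from mouse to mouse about as much as hindbrain did, around a smaller mean. Over the 16 mice, the within-mouse median of the 21 mature genes averaged 0.87 ± 0.19 for hindbrain minus forebrain and 0.35 ± 0.21 for whole brain minus forebrain (SD; 0.33 ± 0.19 without DD656). The median over the 21 mature genes of whole brain minus forebrain was 0.73 in BB707 and 0.72 in DD656, and 0.00 in DD657 and 0.03 in DD676, both NOD/ShiLtJ. In DD657 only 11 of the 21 genes were higher in whole brain than in forebrain and in DD676 only 13. In each of the 16 mice all 21 mature genes were nevertheless higher in hindbrain than in whole brain. Hindbrain and forebrain came from one hemisphere and whole brain from the other.

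**Figure D3:**
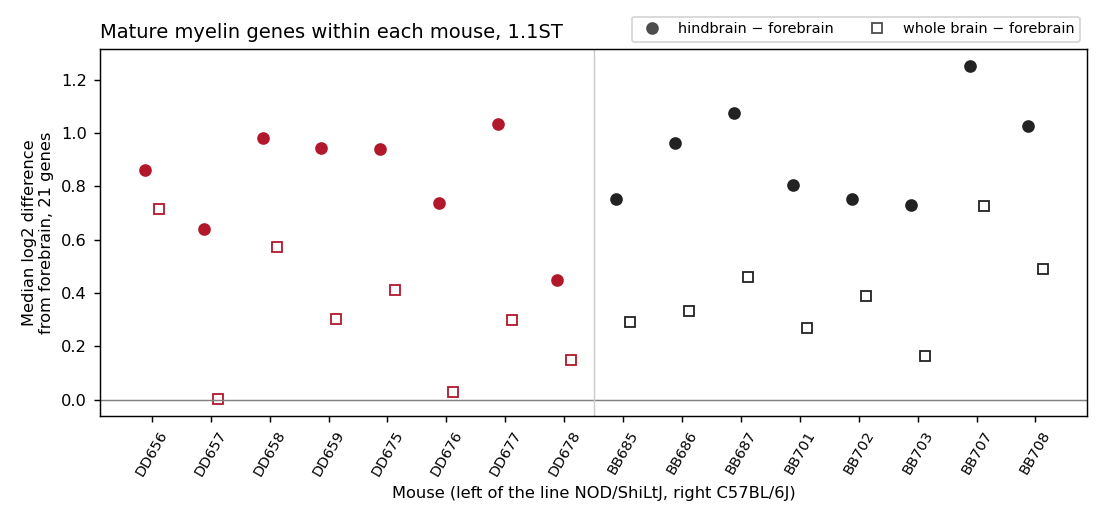
Median log2 difference from forebrain over the 21 mature genes (y axis) within each of the 16 mice (x axis; red, NOD/ShiLtJ; black, C57BL/6J), for hindbrain (circles) and whole brain (squares). The hindbrain medians lie between 0.45 and 1.25, and the whole brain medians spread from 0.00 in DD657 to 0.73 in BB707.

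Further genes of the lineage, which are not among the 31, were read beside them. These lists too were chosen with earlier results of these data known. Of all clusters, 33.1% were higher in hindbrain than in forebrain and 32.5% lower. Of 37 other genes of mature oligodendrocytes 36 were higher in hindbrain and 1 lower (median 0.77). Klk6, a protease of oligodendrocytes, had the largest difference (2.49), followed by Hapln2, a link protein of the nodes of Ranvier (1.54), and the gene that fell was Kif5a (-0.22), a kinesin that neurons also express. Of 25 genes of progenitors and newly formed oligodendrocytes 18 were higher and 5 lower (median 0.29). Here Tcf7l2, a Wnt pathway factor that thalamic neurons also express, was highest (2.24) and Enpp6, a marker of newly formed cells, next (1.02), while Xylt1 (-0.58) and Tnr (-0.35) fell most.

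Markers of other cell types were also called between hindbrain and forebrain, as were 65.7% of all clusters, 33.1% being higher and 32.5% lower. Of 11 astrocyte genes 8 were higher and 2 lower in hindbrain (median 0.43), of 5 endothelial genes all 5 were higher (median 0.35), of 10 microglial genes none was higher and 8 were lower (median -0.13), and of 11 neuronal genes 7 were higher and 4 lower (median 0.18). The mean log2 level of the astrocyte list ran from 10.32 to 10.55 in hindbrain and from 9.96 to 10.23 in forebrain, and that of the endothelial list from 8.30 to 8.92 in hindbrain and from 7.87 to 8.64 in forebrain. Of 6 measured Schwann cell genes 3 were higher and 2 lower (median 0.13), with mean levels of 6.61 to 6.87 in hindbrain and 6.59 to 6.89 in forebrain. Pmp22, which cells outside the nerve also express, was among the higher ones (1.04) and Egr2 among the lower ones (-1.03). The part of these cell types in the myelin gene differences was not tested.

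The strains differed far less than the regions, and only for some genes. Over the 3 regions together, 14 of the 28 genes were higher and 2 lower in NOD/ShiLtJ than in C57BL/6J (limma, FDR below 0.05), where 28.4% of all clusters differed, 14.8% being higher and 13.6% lower. The 14 were the sheath genes Mog, Cnp, Cldn11, Opalin, Plekhb1, Tspan2, Bcas1 and Gpr37, the enzymes Ugt8a, Fa2h, Aspa and Car2, the factor St18 and the progenitor gene Pdgfra. Trf (-0.19 ± 0.05) and Apod (-0.11 ± 0.04) fell, but neither was called with the vehicle mice alone (Trf -0.12, FDR 0.21, limma; Apod -0.09, FDR 0.18, limma). Of the 14 higher genes, Cnp, Plekhb1 and Bcas1 also lost their call with the vehicle mice alone. Cldn11, Plekhb1, Bcas1 and Fa2h lost theirs with a Benjamini-Hochberg adjustment, and all of these but Fa2h on the 1.0ST arrays. Fa2h lost its call with 1 mean per mouse. The median over the 28 was 0.09, against 0.01 over all clusters. Without the whole brain of DD656, 12 were called, and Cldn11, Plekhb1, Bcas1 and Fa2h were lost. The share of all clusters called in that fit is not given. Leaving out single mice ended the call of Cldn11 for 9 of the 16 mice, of Plekhb1 for 11, of Bcas1 and Fa2h for 10 each and of Cnp for 3.

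Over the regions the largest strain differences were those of St18 (0.30 ± 0.08; FDR 0.0025, limma), Opalin (0.28 ± 0.07; FDR 0.0011, limma), Car2 (0.27 ± 0.05; FDR 4.1e-06, limma) and Ugt8a (0.27 ± 0.05; FDR 4.4e-06, limma). Mog followed with 0.25 ± 0.05 and Pdgfra with 0.20 ± 0.03. All 6 were called on the 1.0ST arrays too, where St18 was smaller (0.19) and lay below Ugt8a (0.27), Opalin (0.26), Mog (0.23), Car2 (0.22) and Pdgfra (0.21). Mbp, on the 1.0ST arrays, was 0.07 ± 0.02 higher in NOD/ShiLtJ (FDR 0.017, limma), and Nkx6-2 there had a difference of -0.03 ± 0.04 (FDR 0.43, limma).

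In forebrain, 7 of the 28 genes were higher in NOD/ShiLtJ and none lower, where 11.7% of all clusters differed, 5.11% being higher. Opalin ran from 8.48 through 8.80 to 9.10 in the 8 NOD/ShiLtJ forebrains and from 8.16 through 8.40 to 9.06 in the 8 C57BL/6J forebrains, a difference of 0.35 ± 0.12 (FDR 0.031, limma). Car2 ran from 10.77 through 10.97 to 11.17 in NOD/ShiLtJ and from 10.49 through 10.65 to 10.80 in C57BL/6J, a difference of 0.32 ± 0.08. The strains overlapped by a narrow margin for Car2 and widely for Opalin, whose call was lost without any one of 7 mice (BB686, BB687, BB702, BB707, BB708, DD657 or DD678).

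Mog, also in forebrain, ran from 10.05 through 10.20 to 10.40 in NOD/ShiLtJ and from 9.73 through 9.86 to 10.28 in C57BL/6J, a difference of 0.32 ± 0.08. Ugt8a ran from 9.77 through 10.02 to 10.13 in NOD/ShiLtJ and from 9.35 through 9.71 to 9.87 in C57BL/6J, a difference of 0.31 ± 0.08. The other 3 called genes were Pdgfra (0.30 ± 0.06), Gpr37 (0.26 ± 0.09) and Tspan2 (0.23 ± 0.06), and Gpr37 lost its call without BB687, BB707, BB708, DD659 or DD678. None of the 28 genes separated the strains fully in forebrain, where 1.38% of all clusters did so with NOD/ShiLtJ higher and 2.11% with NOD/ShiLtJ lower. With the 8 vehicle mice alone, 9 genes were called in forebrain, where 6.31% of all clusters were, and Car2 lost its call (0.26, FDR 0.20, limma).

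In hindbrain, 4 genes were higher and 2 lower in NOD/ShiLtJ, where 17.2% of all clusters differed, 9.33% being higher and 7.85% lower. St18 ran from 8.20 through 8.46 to 9.59 in NOD/ShiLtJ and from 7.93 through 8.20 to 8.91 in C57BL/6J, a difference of 0.42 ± 0.14 (FDR 0.021, limma). The NOD/ShiLtJ values were widely spread (SD 0.51), and the call was lost on the 1.0ST arrays (0.29, FDR 0.10, limma), with surrogate variables (0.19), in hindbrain alone and without BB685, BB702, DD676 or DD678. Cspg4 was the progenitor gene that moved the other way. It ran from 6.27 through 6.74 to 7.02 in NOD/ShiLtJ and from 6.72 through 7.03 to 7.28 in C57BL/6J, a difference of -0.33 ± 0.09 (FDR 0.0069, limma).

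Car2 in hindbrain ran from 11.49 through 11.70 to 11.91 in NOD/ShiLtJ and from 11.33 through 11.40 to 11.59 in C57BL/6J, a difference of 0.28 ± 0.08. Ugt8a ran from 10.67 through 10.93 to 11.08 in NOD/ShiLtJ and from 10.42 through 10.65 to 10.79 in C57BL/6J, also 0.28 ± 0.08. Mog (0.23 ± 0.08) was also called there, and it lost its call without BB685, BB686, BB702, DD659, DD675 or DD677. Apod fell by 0.21 on the log2 scale. With the 8 vehicle mice alone, none of the 28 was called in hindbrain, where 6.82% of all clusters were.

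In whole brain, 1 gene was higher and 1 lower in NOD/ShiLtJ, where 10.7% of all clusters differed, 5.13% being higher and 5.59% lower. Trf ran from 10.89 through 11.15 to 11.72 in NOD/ShiLtJ and from 11.33 through 11.46 to 11.65 in C57BL/6J, a difference of -0.26 ± 0.08 (FDR 0.015, limma). It was -0.33 without the whole brain of DD656, and it lost its call without DD676 (-0.21, FDR 0.052, limma). Pdgfra ran from 9.36 through 9.42 to 9.60 in NOD/ShiLtJ and from 9.04 through 9.25 to 9.49 in C57BL/6J, a difference of 0.23 ± 0.06 (FDR 0.0040, limma).

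St18 and Opalin had differences of the same size in whole brain but did not pass. St18 ran from 7.71 through 8.12 to 8.20 in NOD/ShiLtJ and from 7.61 through 7.72 to 8.08 in C57BL/6J (0.26 ± 0.14; FDR 0.24, limma). Opalin ran from 8.76 through 9.03 to 9.56 in NOD/ShiLtJ and from 8.52 through 8.79 to 9.21 in C57BL/6J (0.25 ± 0.12; FDR 0.17, limma). With the vehicle mice alone, none of the 28 was called in whole brain, where 5.40% of all clusters were.

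**Figure D4:**
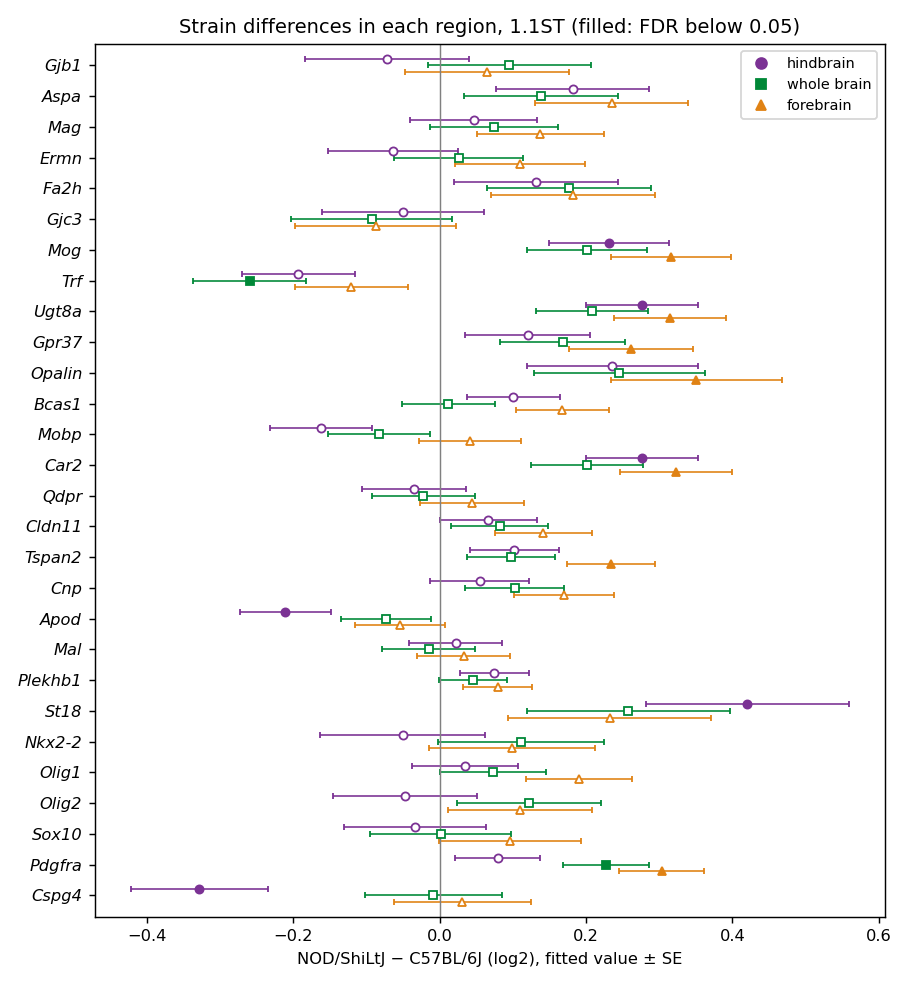
Fitted strain difference on the log2 scale, NOD/ShiLtJ over C57BL/6J (x axis, with bars of 1 SE, 8 mice per strain) of the 28 genes (y axis) in hindbrain (circles), whole brain (squares) and forebrain (triangles), filled where the FDR was below 0.05. Most forebrain values lie right of 0. Trf, Apod and Gjc3 lie left of 0 in all 3 regions, and Cspg4 lies at -0.33 in hindbrain and near 0 in the other regions.

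Among the further genes of mature oligodendrocytes, 16 of 37 were higher and 2 lower in NOD/ShiLtJ over the regions (median 0.11), with Klk6 (0.62) and Cd9 (0.39), a tetraspanin, at the top and Kif5a (-0.28) and Josd2 (-0.17) at the bottom. Of the 25 genes of progenitors and newly formed cells 7 were higher and 2 lower (median 0.05), with Enpp6 (0.36) and C1ql1 (0.35) at the top and Zfp488 (-0.19), a factor of oligodendrocyte differentiation, and Lhfpl3 (-0.12) at the bottom. In this comparison 14.8% of all clusters were higher and 13.6% lower. Whether these list calls hold under the alternatives is not given.

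The region difference was compared between the strains by its interaction. None of the 28 genes was called (limma, FDR below 0.05), where 1.11% of all clusters were, 0.653% being negative, although 3 had an unadjusted p below 0.05. The difference of hindbrain minus forebrain was smaller in NOD/ShiLtJ than in C57BL/6J by value for 26 of the 28. The median was -0.10, against 0.01 over all clusters, and the 26 are not independent, because most of these genes varied together. The 3 genes were Cspg4 (-0.36 ± 0.13; FDR 0.21, limma), Pdgfra (-0.22 ± 0.08; FDR 0.21, limma) and Mobp (-0.20 ± 0.10; FDR 0.43, limma). With surrogate variables Cspg4 was called (-0.32, FDR 0.0095, limma). Fitted within each strain, the hindbrain difference of Cspg4 was -0.21 ± 0.10 in NOD/ShiLtJ and 0.15 ± 0.08 in C57BL/6J, and that of Pdgfra was -0.02 ± 0.05 in NOD/ShiLtJ and 0.21 ± 0.07 in C57BL/6J.

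Clozapine, an antipsychotic that blocks several monoamine receptors, was called for 1 of the 28 genes, where 2.23% of all clusters were called, 1.28% being lower. That gene was Sox10. In hindbrain it ran from 7.13 through 7.55 to 7.90 in the 8 clozapine mice and from 7.62 through 8.01 to 8.13 in the 8 vehicle mice. In whole brain it ran from 7.04 through 7.37 to 7.52 with clozapine and from 7.40 through 7.66 to 8.05 with vehicle, and in forebrain from 6.93 through 7.17 to 7.37 with clozapine and from 7.12 through 7.42 to 7.51 with vehicle. The treatments overlapped in each region while each clozapine median was the lower one. The fitted difference over the regions was -0.32 ± 0.06 (FDR 0.00075, limma), and on the 1.0ST arrays it was -0.17 ± 0.04 (FDR 0.029, limma).

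The fit counts 3 samples of each mouse with a low correlation between them, so each mouse was also reduced to 1 mean. The means of Sox10 then ran from 7.04 through 7.36 to 7.59 in clozapine mice and from 7.42 through 7.70 to 7.82 in vehicle mice, and the call was lost (-0.32, FDR 0.085, limma), with 0.0424% of all clusters called. By strain, the NOD/ShiLtJ hindbrains averaged 7.42 ± 0.27 with clozapine and 8.01 ± 0.10 with vehicle (SD, n = 4 each), and the C57BL/6J hindbrains 7.62 ± 0.33 with clozapine and 7.89 ± 0.22 with vehicle. The NOD/ShiLtJ whole brains averaged 7.29 ± 0.12 with clozapine and 7.71 ± 0.27 with vehicle, and the C57BL/6J whole brains 7.37 ± 0.22 with clozapine and 7.62 ± 0.08 with vehicle. The NOD/ShiLtJ forebrains averaged 7.15 ± 0.11 with clozapine and 7.48 ± 0.03 with vehicle, and the C57BL/6J forebrains 7.19 ± 0.21 with clozapine and 7.24 ± 0.13 with vehicle. The clozapine mean was thus the lower one in each strain and region. Whether the strains differ in this was not tested.

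The clozapine mice were killed at a median clock hour of 13.7 and the vehicle mice at 14.6, and 3 of the 5 endothelial genes were lower with clozapine (median -0.22 over the 5). The part of either in the Sox10 difference was not tested. The other 27 genes had differences between -0.20 (Aspa; FDR 0.073, limma) and 0.18 (St18; FDR 0.28, limma), and 7 of the 28 had an unadjusted p below 0.05. Of the 37 further mature genes, Cdc42ep2 was lower (-0.33), and of the 25 of progenitors and newly formed cells, Gpr17 (-0.25), a receptor of committed progenitors, was lower. Of all clusters 1.28% were lower. These calls and the endothelial ones come from the fit with 3 samples per mouse. Whether they hold with 1 mean per mouse is not given.

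**Figure D5:**
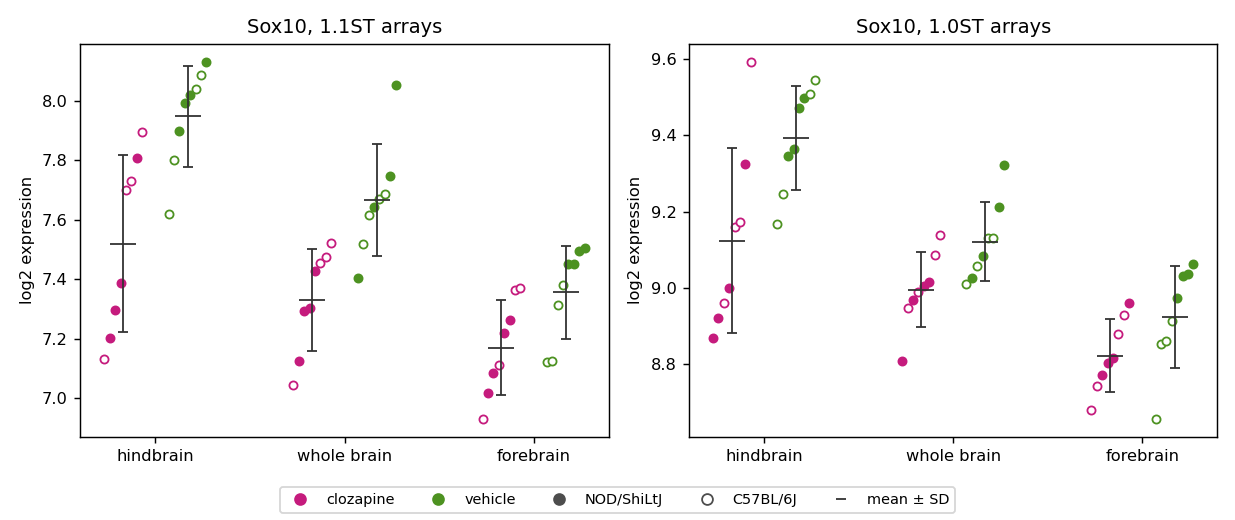
Log2 expression of Sox10 (y axis) by region (x axis) in 8 clozapine mice (pink) and 8 vehicle mice (green) on the 1.1ST arrays (left) and the 1.0ST arrays (right), with filled points for NOD/ShiLtJ, open points for C57BL/6J and bars for the mean ± SD. The clozapine mean is the lower one in each region on both formats. With the strains pooled the points overlap in each region, as do those of C57BL/6J alone. The NOD/ShiLtJ points do not overlap on 1.1ST in hindbrain (highest clozapine 7.81, lowest vehicle 7.90) and forebrain (7.26 and 7.45). On 1.0ST they do not overlap in any region, by narrow margins.

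The genes also varied together from sample to sample within groups. After the mean of each combination of strain, region and treatment was removed, the median Pearson correlation over the 210 pairs of mature genes was 0.64 across the 48 arrays, with a lowest value of 0.33 and a highest of 0.89 (Mag with Cldn11). Pairs of a mature gene and a lineage factor had a median of 0.46 and pairs of 2 lineage factors 0.32. Pairs of a mature and a progenitor gene had a median of 0.07, and Cspg4 with Pdgfra had -0.22. Olig1 was the lineage factor closest to the mature genes (median 0.61) and St18 the farthest from them (0.28). On the 1.0ST arrays, which hold the same RNA, the median over pairs of mature genes was 0.66. These correlations are a description, since arrays share mice, dissections and normalization.

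On the 1.0ST arrays, 27 of the same 28 genes were higher in hindbrain than in forebrain (limma, FDR below 0.05), where 77.1% of all clusters differed, 34.3% being higher and 42.8% lower. For whole brain over forebrain 26 were higher, where 16.5% of clusters differed, 10.0% being higher and 6.50% lower, and for hindbrain over whole brain 27 were higher, where 64.4% differed, 31.1% being higher and 33.2% lower. Between the strains, 7 were higher in NOD/ShiLtJ in forebrain, where 10.1% differed (5.16% higher, 4.93% lower). In hindbrain 4 were higher and 3 lower, where 13.7% differed (6.71% higher, 7.02% lower), and in whole brain 3 were higher and 1 lower, where 9.35% differed (4.83% higher, 4.52% lower). Over the regions 11 were higher and 3 lower, where 25.9% differed (14.6% higher, 11.3% lower). Hindbrain minus forebrain had the same sign on both for 28 of 28 genes, with a median of 0.77 on 1.1ST and 0.71 on 1.0ST, and the value was smaller on 1.0ST for 21 of 28. Centring each array on its median changed the split of higher against lower clusters on 1.1ST. It gave 26.5% higher and 55.6% lower for hindbrain over forebrain, 8.77% and 20.8% for whole brain over forebrain, 22.8% and 29.0% for hindbrain over whole brain, 7.63% and 5.19% for strain in forebrain, 21.6% and 10.8% for strain over the regions and 1.12% and 0.989% for clozapine, where the uncentred values gave 0.957% and 1.28%. Between the formats, the strain difference over the regions had the same sign for 24 of 28 and the clozapine difference for 27 of 28. Mobp was called lower in NOD/ShiLtJ over the regions on 1.0ST only (-0.10, FDR 0.039, limma).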

How the data were processed

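Expression of 48 RNA samples (16 mice, 3 regions) was measured on Affymetrix Mouse Gene 1.1ST and 1.0ST arrays. The authors summarised the probes of each transcript cluster by robust multiarray average with sketch-quantile normalization in Affymetrix Expression Console 1.1 and deposited log2 values for 28310 clusters, each format on its own. Quantile normalization makes values relative within a format. Arrays carry no read depth, and the number of mice limits the precision.

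Genes were named through the platform annotation, and only clusters with 1 symbol were used for the 31 genes. The members and gene lists were chosen with earlier results of these data known. The values were fitted with limma 3.58.1 (R 4.3.3): a mean per strain and region, treatment, and the mouse as a random block (statmod 1.5.0; consensus correlation 0.039). P-values are two-sided. FDR followed the formula of the study's methods over all 28310 clusters, with a threshold of 0.05, and it can lie below the p itself where most clusters differ. The study's fit also held array batch and 5 surrogate variables. The batch is not in the labels, and the surrogate variables were kept as an alternative because they vary with region. The fit was tested on simulated data. The regions of a mouse are paired by its number, and residuals of the same mouse correlated by 0.041 between forebrain and whole brain, 0.075 between forebrain and hindbrain and -0.019 between whole brain and hindbrain. Text values were named by rule: the largest differences of each comparison (6, 3 and 4 genes for hindbrain, whole brain and strain) and every gene called for clozapine or the interaction, and of the further lists the 2 largest called in each direction. Probe sequences were not compared with the NOD/ShiLtJ genome. Promoter windows came from RefSeq (GRCm38.p6).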

Additional observations from a re-analysis of the deposited data

Results flagged for a closer look

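In the 168 sets of 8 arrays (28 genes, 3 regions, 2 strains), the highest or lowest array lay far from the other 7 in 14, by Dixon's test of the gap against the range. Chance alone gives about 1 in 20 among independent sets of like arrays. These sets are not independent, because the genes varied together and some arrays recur, and each set holds both treatments. The count of flagged sets was therefore not tested against that rate. The values below are log2 levels on the 1.1ST arrays, and each of these arrays held the same extreme place in its set on the 1.0ST arrays except that of Cspg4, which was the second lowest there.

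The whole brain of DD656 was the highest of the NOD/ShiLtJ whole brains for Mag (10.87, next 10.42), Bcas1 (9.68, next 9.27) and Fa2h (10.04, next 9.36). Among C57BL/6J, the whole brain of BB707 was highest for Mag (10.68, next 10.33) and its forebrain lowest for Gjb1 (5.13, next 5.53). The hindbrain of DD678, a clozapine mouse, was the lowest of its strain for Mog (10.94, next 11.14), Mal (10.73, next 10.90), Tspan2 (11.04, next 11.22) and Gjc3 (10.79, next 10.96), and its forebrain was the highest for Gjb1 (6.20, next 5.75). The whole brain of DD657 was lowest for Gjc3 (9.64, next 10.14). BB685, a clozapine mouse, was lowest for Sox10 in whole brain (7.04, next 7.45) and for Nkx2-2 in hindbrain (6.32, next 6.85). The forebrain of DD676 was lowest for Cspg4 (6.42, next 6.84).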

How the results depend on the processing

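Among the 28 genes, every call of hindbrain over forebrain kept its direction under all alternatives run except Pdgfra, which was -0.016 with NOD/ShiLtJ alone and lost its call with surrogate variables and with centred arrays. Without single mice, 27 genes were called for hindbrain minus forebrain throughout, 25 to 27 for whole brain minus forebrain, 26 for hindbrain minus whole brain, 5 to 10, 4 to 7 and 2 to 4 for strain in forebrain, hindbrain and whole brain, 11 to 17 for strain over the regions, 0 for the interaction and 1 to 3 for clozapine. The whole brain strain count was 4 without BB707, DD657, DD676 or DD677. For clozapine, Aspa was added without BB686 or BB701, Nkx2-2 without BB703, and Aspa and Olig2 without DD675. Surrogate variables gave 11 calls for strain in hindbrain (20.4% of all clusters called in that fit), 5 in whole brain (18.0%) and 1 for the interaction (2.29%), the 1.0ST arrays gave 4 for strain in whole brain (9.35%), the vehicle mice alone gave 0 for strain in hindbrain (6.82%) and 0 in whole brain (5.40%), and 1 mean per mouse gave 0 for clozapine (0.0424%); the cause was not tested. Leaving out the replicate block of the mouse gave 27 and 26 calls for hindbrain and whole brain against forebrain, 17 for strain over the regions and 1 for clozapine, and the mouse as a fixed replicate block gave 27, 26 and 26 for the region comparisons and 0 for the interaction. The block thus changed no count by over 1.5 times. The shares of all clusters called in the fits without single mice and with the block changed are not given. Those counts are therefore not set against a background. Of the medians of the mature, lineage and progenitor genes, none moved by more than the spread between mice under any alternative.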
